A study of Mus musculus with 12 samples.

Results

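Glutathione transferases join the tripeptide glutathione to reactive compounds so that cells can export them. The 10 genes described here are the 7 measured mu-class genes Gstm1 to Gstm7, which encode soluble enzymes, and the 3 microsomal genes Mgst1 to Mgst3, which encode membrane enzymes of a different protein family. They were taken by symbol from 19935 genes, each gene being the mean of the probe sets that carry that one symbol. All 10 were measured, Gstm3 by 2 probe sets and each of the others by 1, and no filter on low values was applied. The genes were selected on results of these same arrays, in which Mgst1 had been singled out by the small p-value of its difference between DSS and water in transgenic mice. That comparison is therefore given as a description with no test, and p-values of the other comparisons describe the fit over all genes and are not independent evidence.

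Claudin-2 is a leaky claudin of tight junctions, the seals between epithelial cells, and the mice compared here differ in a transgene for it. Male mice aged 8 to 10 weeks were used, either Villin-Claudin-2 transgenic (TG) or wild-type littermates (WT), and the transgene is named for villin, a brush border protein of gut epithelium. The 4 groups were TG and WT mice given 4% dextran sulfate sodium (DSS) in the drinking water for 10 days, and TG and WT mice given plain water. Each group had 3 arrays of RNA labelled as colon epithelial cells. DSS is a polymer that damages the colon lining. Nothing in the labels ties an array to a separate animal, and p-values therefore reflect only the scatter among these samples, some of which may be technical.

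The deposited log2 values are centred, each probe set having its 12-array median at 0. They compare arrays for one gene, and they give no absolute level, no order of levels between genes, and no check of whether epithelial markers were present. The WT DSS arrays stood apart in how many of 28815 probe sets lay over 1 log2 unit away from the median. The counts were 677, 3795 and 1035 on WT DSS replicates 1 to 3. They were 53 to 285 in the TG DSS arrays. In the water arrays they were 22 to 91 for TG and 32 to 68 for WT. Cldn2 was 0.14 ± 0.44 higher in TG than in WT at water and 1.04 ± 0.44 higher under DSS (SE, n = 3 arrays in each group; adjusted p of 1 and 0.292 in limma), so it checks the genotype labels only weakly. Cldn2 read -0.24, 0.27 and 0.15 in the TG DSS arrays, against -0.53, -2.28 and -0.12 in the WT DSS arrays. These groups overlapped, and without WT DSS replicate 2, a setting chosen after seeing the data, the difference was 0.38. In bulk RNA, fewer cells of a type and less RNA per cell cannot be told apart.

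Mu-class enzymes are abundant in liver and are also made along the gut, where they act on electrophiles from food, drugs and bacteria and on products of lipid oxidation. Many genes of glutathione metabolism are targets of NRF2, a transcription factor released by oxidative stress that binds the antioxidant response element. Microsomal transferases sit in the endoplasmic reticulum and outer mitochondrial membrane, and some members also reduce lipid peroxides or make leukotriene C4, a lipid mediator.

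The 7 Gstm genes lie in one block on chromosome 3, from 107895854 to 108045179 in GRCm38.p6, in the order Gstm5, Gstm7, Gstm6, Gstm3, Gstm2, Gstm1 and Gstm4. Gstm5 is annotated on the plus strand and the other Gstm genes on the minus strand. Mgst2 lies elsewhere on chromosome 3 (51636912 to 51682675), Mgst1 on chromosome 6 (138140527 to 138156755) and Mgst3 on chromosome 1 (167371966 to 167393841). All 10 are annotated as protein-coding.

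The promoters of Gstm3, Gstm5 and Mgst1 are shown as examples. Gstm3 was low in WT under DSS. Gstm5 and Mgst1 both overlapped with water in WT under DSS. Both were also above water in TG under DSS, the comparison on which Mgst1 was selected. In all 3 the start site is the outer end of the annotated gene. Each line is the 250 bases before the annotated start site, 5′ to 3′ on the gene's strand, from RefSeq on GRCm38.p6, and capitals mark matches to the motifs named next. The spans are chr3:107969175-107969424 on the minus strand for Gstm3, chr3:107895604-107895853 on the plus strand for Gstm5 and chr6:138140277-138140526 on the plus strand for Mgst1.
Gstm3: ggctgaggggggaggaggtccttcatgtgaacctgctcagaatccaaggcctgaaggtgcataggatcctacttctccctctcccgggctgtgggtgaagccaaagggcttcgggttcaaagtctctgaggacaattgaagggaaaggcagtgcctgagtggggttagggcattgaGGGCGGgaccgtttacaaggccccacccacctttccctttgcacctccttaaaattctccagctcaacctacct
Gstm5: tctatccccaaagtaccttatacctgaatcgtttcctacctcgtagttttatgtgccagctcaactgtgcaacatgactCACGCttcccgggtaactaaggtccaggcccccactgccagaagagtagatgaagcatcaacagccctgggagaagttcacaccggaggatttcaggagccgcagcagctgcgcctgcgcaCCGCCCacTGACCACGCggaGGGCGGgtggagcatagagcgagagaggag
Mgst1: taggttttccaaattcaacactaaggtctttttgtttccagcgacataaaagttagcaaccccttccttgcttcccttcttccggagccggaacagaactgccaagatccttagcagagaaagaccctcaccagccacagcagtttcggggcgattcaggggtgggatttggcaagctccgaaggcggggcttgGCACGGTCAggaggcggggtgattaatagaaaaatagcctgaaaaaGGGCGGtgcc

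The motifs were searched on both strands of this window for all 10 genes, at the farthest upstream of the start sites given for each. For Gstm4, Gstm6, Gstm7 and Mgst2 that start site lay inside the annotated gene. The Gstm4 and Mgst2 windows were wholly within the gene, and the Gstm6 and Gstm7 windows overlapped it. The antioxidant response element core, TGACNNNGC, was found in 2 of 10 windows, Gstm5 with its first base at -42 and Mgst1 at -56, against 10.2% of 32851 promoter windows. In Gstm5 it overlaps a match to the xenobiotic response element core, GCGTG, which was found in 3 of 10 windows (Gstm1, Gstm5 and Mgst3) against 28.2% of all. The GC box, GGGCGG, was in 5 of 10 against 32.7%, the CCAAT box in 6 of 10 against 33.8%, and TATAAA in 2 of 10 against 12.4%. A match is a match of letters and says nothing of binding.

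The first comparison asked how these genes stood in WT mice under DSS. Gstm7 and Gstm4 fell, and 4 more mu-class genes had all 3 DSS arrays below all 3 water arrays without passing. Gstm7 read -1.01, -1.29 and -1.04 in the WT DSS arrays, against 0.08, -0.27 and 0.14 in the WT water arrays. The 3 DSS arrays lay close together and well below the water arrays. In log2 units Gstm7 fell by 1.10 ± 0.15, which is 2.15-fold (SE, n = 3 arrays in each group; limma adjusted p = 0.0285). Gstm4 read -0.58, -0.86 and -0.70 in the WT DSS arrays, against 0.00, -0.07 and 0.21 in the WT water arrays. It fell by 0.76 ± 0.11 (1.69-fold lower; limma adjusted p = 0.0373), and these groups did not overlap either.

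The largest estimate among the 10 genes belonged to Gstm6. It read -1.11, -2.65 and -1.57 in the WT DSS arrays, against 0.12, -0.12 and 0.48 in the WT water arrays. Every DSS array was low, replicate 2 most of all. The difference was -1.94 ± 0.37 and did not pass (limma adjusted p = 0.067). Gstm3 read -0.65, -1.95 and -0.94 in the WT DSS arrays, against 0.10, -0.06 and 0.25 in the WT water arrays, with the same order of the DSS arrays. Its difference was -1.28 ± 0.29 (limma adjusted p = 0.0971). The 2 Gstm3 probe sets had differences of -1.53 and -1.03, with DSS values down to -2.48 on one and -1.42 on the other. The genome position of 1 of the 2 was not given, and the Gstm3 values are the mean of both.

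Gstm1 and Gstm2 differed less, and in them replicate 2 was not the lowest WT DSS array. Gstm1 read -0.46, -0.20 and -0.95 in the WT DSS arrays, against 0.00, -0.06 and 0.15 in the WT water arrays, a difference of -0.57 ± 0.16 (limma adjusted p = 0.165). Gstm2 read -0.32, -0.30 and -0.82 in the WT DSS arrays, against 0.00, 0.00 and 0.21 in the WT water arrays, a difference of -0.55 ± 0.16 (limma adjusted p = 0.172). Replicate 3 was the lowest in both genes. Gstm5, known in mouse mainly from brain and testis, read -0.22, -0.19 and -0.54 in the WT DSS arrays, against -0.41, 0.09 and 0.04 in the WT water arrays. Its groups overlapped and the difference was -0.22 ± 0.19 (limma adjusted p = 0.617).

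**Figure D1:**
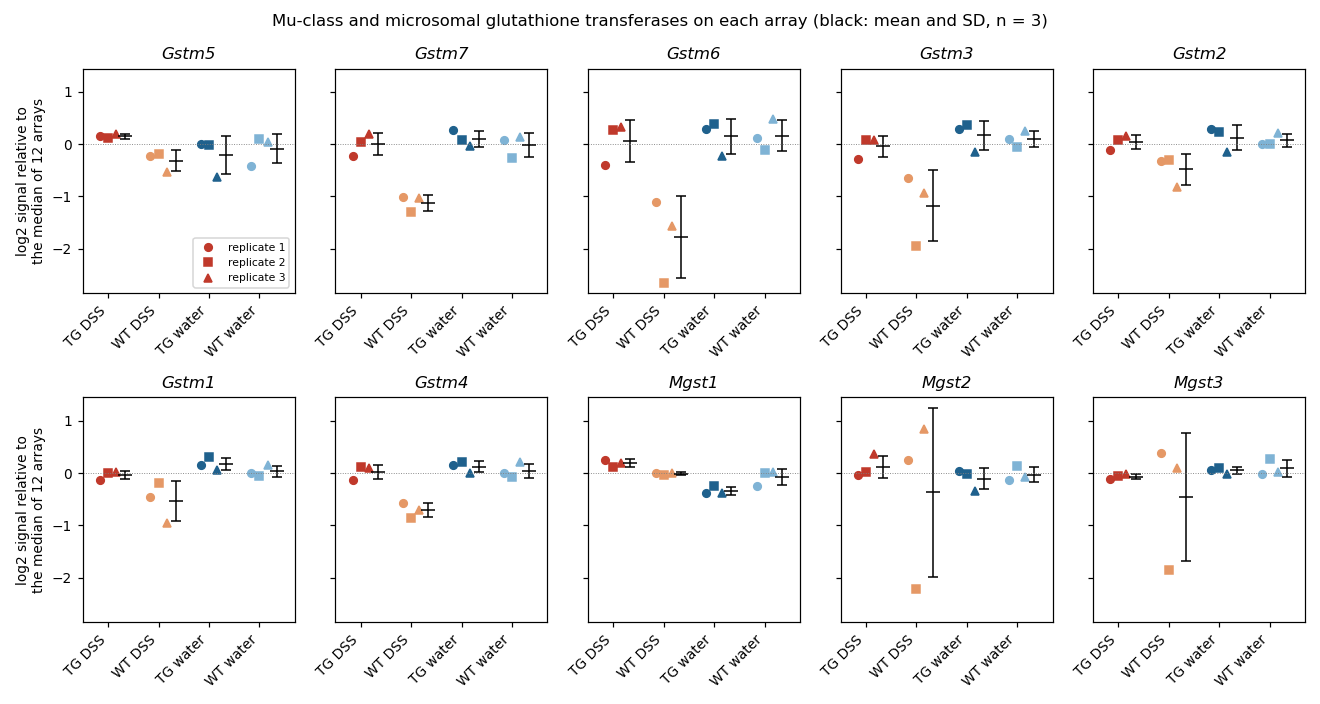
Each panel plots 1 gene, with the centred log2 value on the y axis and the 4 groups on the x axis; coloured points are single arrays, shaped by replicate, and black bars give the mean and SD (n = 3). In 6 of the 7 Gstm panels all WT DSS points lie below all WT water points, and Mgst2 and Mgst3 have 1 low WT DSS point each, at -2.21 and -1.86.

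Counted together, 2 of 10 genes passed in WT under DSS, both lower, where 0.171% of all genes passed in either direction. The DSS and water arrays did not overlap for 6 of 10, all lower, where 10.7% of all genes were lower without overlap. The median difference was -0.76 over the 7 Gstm genes and -0.04 over all genes, whose central 95% ran from -0.87 to 1.08. Both calls rest on a spread pooled over the 4 groups, and neither passed in a fit of the 6 WT arrays alone (limma adjusted p = 0.367 for Gstm7 and 0.391 for Gstm4) or with weights per group (0.151 and 0.156). With 1 array left out, Gstm7 passed in 5 of 12 fits and Gstm4 in 4 of 12. The number of passing members was 0 without WT water replicate 1, 2 or 3, TG water replicate 1, 2 or 3, or TG DSS replicate 2, 1 without TG DSS replicate 3 and 4 without WT DSS replicate 1.

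No microsomal gene passed in WT under DSS. Mgst1, a membrane enzyme with transferase and peroxidase activity, read 0.00, -0.04 and 0.00 in the WT DSS arrays, against -0.25, 0.00 and 0.02 in the WT water arrays. Its difference was 0.06 ± 0.09, with a 95% interval from -0.14 to 0.26 (limma adjusted p = 0.807). Mgst2, which can make leukotriene C4, read 0.24, -2.21 and 0.85 in the WT DSS arrays, against -0.14, 0.13 and -0.07 in the WT water arrays. Mgst3 read 0.39, -1.86 and 0.09 in the WT DSS arrays, against -0.01, 0.27 and 0.01 in the WT water arrays. In both genes replicate 2 was low while replicates 1 and 3 were near or above the water arrays. The differences of -0.35 ± 0.60 for Mgst2 and -0.55 ± 0.45 for Mgst3 did not pass (limma adjusted p = 0.841 and 0.605), and without WT DSS replicate 2 they were 0.57 and 0.15.

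Cell type markers also differed in WT under DSS, most of all on replicate 2. The median difference was -0.78 over 12 pan-epithelial markers and -0.81 over 8 absorptive colonocyte markers, against -0.76 over the 7 Gstm genes. It was 2.34 over 9 neutrophil markers. Of the 12 pan-epithelial markers 3 were lower without overlap, and of the 8 absorptive colonocyte markers also 3, where 10.7% of all genes were. No marker passed in limma. The median of 12 pan-epithelial markers was -0.10, -2.05 and 0.02 in WT DSS replicates 1 to 3, against 0.01, 0.07 and 0.02 in the WT water arrays. That of 9 neutrophil markers was 2.14, 4.44 and 0.36 in WT DSS replicates 1 to 3, against 0.00, -0.03 and -0.25 in the WT water arrays. The median of the 7 Gstm genes was -0.58, -0.86 and -0.94 in WT DSS replicates 1 to 3, lowest on replicate 3. In the WT water arrays it was 0.00, -0.06 and 0.21. Taken singly, Gstm3, Gstm4, Gstm6 and Gstm7 were lowest on replicate 2, and Gstm1, Gstm2 and Gstm5 on replicate 3. The part of other cells in the Gstm values was not tested. Without WT DSS replicate 2 the differences were -1.01 for Gstm7, -0.68 for Gstm4, -1.50 for Gstm6, -0.90 for Gstm3, -0.73 for Gstm1 and -0.64 for Gstm2, with Gstm7 and Gstm4 past the threshold (limma adjusted p = 0.033 and 0.0443). Without WT DSS replicate 3 the Gstm1 difference was -0.36. Absorptive colonocyte markers stood at a median of -0.21, -2.26 and 0.08 on the WT DSS arrays, against 0.12 to 0.19 in the WT water arrays, and macrophage markers 1.12, 2.24 and -0.14, against -0.07 to 0.30.

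**Figure D2:**
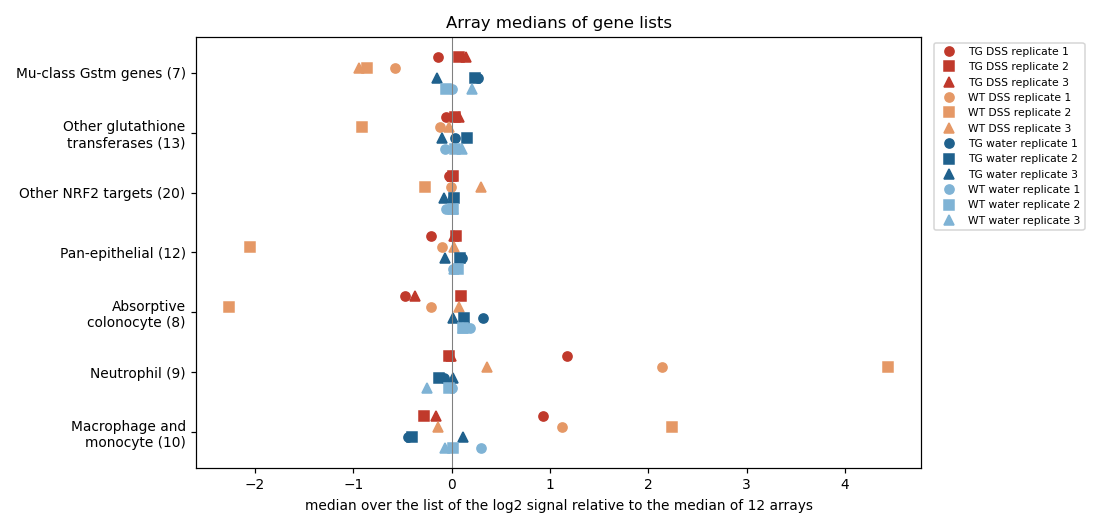
Points give, for each array, the median over a gene list of the centred log2 values (x axis), with 1 row per list and its number of measured genes in brackets; colours are groups and shapes are replicates. The Gstm medians of the 3 WT DSS arrays lie between -0.94 and -0.58. On WT DSS replicates 1 to 3 the pan-epithelial medians are -0.10, -2.05 and 0.02, and the absorptive colonocyte medians are -0.21, -2.26 and 0.08.

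Position along chromosome 3 was set beside the differences. The genes next to the block on the Gstm5 side were Eps8l3, whose protein belongs to the EPS8 family, at -1.31 ± 0.56, Csf1, the macrophage growth factor, at 0.97 ± 0.60 and Ahcyl1 at -0.20 ± 0.08 in WT DSS minus water. On the Gstm4 side they were Ampd2, an AMP deaminase, at 0.03 ± 0.13, Gnat2 at -0.05 ± 0.08 and Gnai3, a G protein subunit, at -0.24 ± 0.13. None of these 6 passed in limma. Eps8l3 and Ahcyl1 were lower in the WT DSS arrays without overlap, where 10.7% of all genes were, and the other neighbours overlapped. Within the block Gstm7, Gstm6 and Gstm3 stand next to each other and had the 3 most negative estimates of the 7, and Gstm5 at the edge had the smallest. Mu-class genes are close copies of one another, and signal shared between their probe sets was not tested.

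The comparison of TG with WT mice at water asked about the transgene without injury. Leaving aside Mgst1, 0 of the other 9 genes passed in limma, where 0% of all genes passed, and the arrays overlapped for all 9, where 4.98% of all genes did not overlap. In TG minus WT at water the 7 Gstm genes lay between -0.11 and 0.14, with a median of 0.07. Gstm7 read 0.27, 0.08 and -0.04 in the TG water arrays, against 0.08, -0.27 and 0.14 in the WT water arrays, a difference of 0.12 ± 0.15 with a 95% interval from -0.21 to 0.45. The interval of Gstm6, from -0.83 to 0.80, was wider, with an SE of 0.37 from a spread pooled over the 4 groups. The SD of Gstm6 was 0.79 in the WT DSS arrays, against 0.33 in the TG water and 0.30 in the WT water arrays. With only the 2 water groups fitted, its SE was 0.20. Cell type markers at water had a median of -0.43 over 8 smooth muscle genes, 5 of them lower in TG without overlap. Over 10 macrophage, 9 fibroblast and 5 enteric neuron and glia markers it was -0.40, -0.31 and -0.33, each with 2 lower without overlap. The other marker lists lay between 0.01 and 0.04. No marker passed, and their part in the Gstm values was not tested. Mgst1 read -0.39, -0.25 and -0.39 in the TG water arrays, against -0.25, 0.00 and 0.02 in the WT water arrays. The TG arrays were low and met the lowest WT array within rounding, and the difference was -0.27 ± 0.09. These TG arrays also enter the comparison for which Mgst1 was picked, so its values are a description.

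In TG mice the DSS values are given as a description. Mgst1 read 0.25, 0.11 and 0.20 in the TG DSS arrays, against -0.39, -0.25 and -0.39 in the TG water arrays. Both sets of arrays were apart, and the difference was 0.53 ± 0.09, or 1.44-fold. Gstm5 read 0.15, 0.11 and 0.20 in the TG DSS arrays, against 0.01, -0.01 and -0.62 in the TG water arrays, a difference of 0.36 ± 0.19 that was 0.15 without TG water replicate 3. Gstm1 read -0.14, 0.00 and 0.01 in the TG DSS arrays, against 0.15, 0.30 and 0.05 in the TG water arrays, a difference of -0.21 ± 0.16. In Gstm5 the DSS arrays were all higher and in Gstm1 all lower than the water arrays, by narrow margins.

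The other mu-class genes overlapped between DSS and water in TG. Gstm6 read -0.40, 0.27 and 0.32 in the TG DSS arrays, against 0.29, 0.38 and -0.23 in the TG water arrays. Gstm7 read -0.23, 0.04 and 0.19 in the TG DSS arrays, against 0.27, 0.08 and -0.04 in the TG water arrays. TG DSS replicate 1 was the lowest TG DSS array for Gstm1, Gstm2, Gstm3, Gstm4, Gstm6 and Gstm7, and the neutrophil markers had a median of 1.17 on it, against -0.03 and -0.01 on TG DSS replicates 2 and 3. The part of these cells in the Gstm values was not tested. Over the 7 Gstm genes the differences ran from -0.21 to 0.36 with a median of -0.10. Of the 10 genes, 3 did not overlap (Gstm1, Gstm5 and Mgst1), where 13.4% of all genes did not, and nothing is read from that count because Mgst1 was selected on this comparison.

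**Figure D3:**
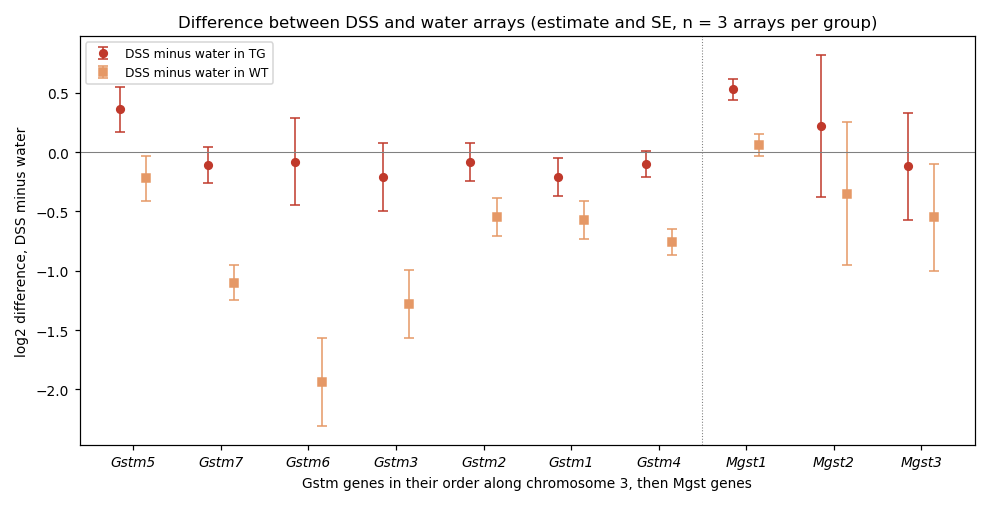
Points give the log2 difference of DSS minus water (y axis) for each gene, circles for TG and squares for WT, with bars for the SE (n = 3 arrays per group); Gstm genes follow their order along chromosome 3. The WT points of Gstm7, Gstm6 and Gstm3 lie below -1, at -1.10, -1.94 and -1.28, while the TG points of the 7 Gstm genes lie between -0.21 and 0.36.

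A further comparison set TG against WT mice under DSS, and it uses the same WT DSS arrays as the first. Gstm7 was higher in TG. It read -0.23, 0.04 and 0.19 in the TG DSS arrays, against -1.01, -1.29 and -1.04 in the WT DSS arrays, and the groups lay far apart. The difference was 1.11 ± 0.15 or 2.17-fold (SE, n = 3 arrays in each group; limma adjusted p = 0.0479). No other member passed. Gstm4 read -0.14, 0.11 and 0.09 in the TG DSS arrays, against -0.58, -0.86 and -0.70 in the WT DSS arrays, a difference of 0.73 ± 0.11 (limma adjusted p = 0.0782). Gstm6 read -0.40, 0.27 and 0.32 in the TG DSS arrays, against -1.11, -2.65 and -1.57 in the WT DSS arrays, a difference of 1.84 ± 0.37 or 3.59-fold (limma adjusted p = 0.0984).

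Gstm3 stood at 1.14 ± 0.29, Gstm2 at 0.52 ± 0.16, Gstm1 at 0.49 ± 0.16 and Gstm5 at 0.47 ± 0.19 in TG minus WT under DSS, with limma adjusted p-values between 0.134 and 0.273. For each of these 4 genes every TG DSS array was above every WT DSS array. Gstm1 was at 0.28 without WT DSS replicate 3, and Gstm3 at 0.75 without WT DSS replicate 2. Mgst1 read 0.25, 0.11 and 0.20 in the TG DSS arrays, against 0.00, -0.04 and 0.00 in the WT DSS arrays, a narrow gap with a difference of 0.20 ± 0.09. Mgst2 at 0.49 ± 0.60 and Mgst3 at 0.39 ± 0.45 overlapped, since only WT DSS replicate 2 was low, and without that array they stood at -0.43 and -0.31.

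Of the 7 Gstm genes 1 passed under DSS, where 0.0401% of all genes passed, and all 7 were higher in TG without overlap, where 14.1% of all genes were. Mgst1 also did not overlap, on TG DSS arrays that entered its selection. The median was 0.73 over the 7 Gstm genes and 0.04 over all genes. Cell type markers differed in the same comparison, with medians of 0.61 over 12 pan-epithelial, 0.44 over 8 absorptive colonocyte, -1.83 over 9 neutrophil, -0.99 over 10 macrophage and -1.27 over 8 endothelial markers. None of these markers passed. At an unadjusted limma p under 0.05, 5 of the 9 neutrophil and 1 of the 10 macrophage markers were lower. At the same cutoff 3 of the 8 absorptive colonocyte markers were higher, and no pan-epithelial or endothelial marker reached it. Of all 19935 genes, 3178 did in either direction. The part of these cell types in the Gstm values was not tested. The Gstm7 call stood close to the threshold. It was lost when only the DSS arrays were fitted (limma adjusted p = 0.501), with weights per group (0.154), with each array centred on its median (0.0621), with robust eBayes (0.0533) and with every probe set on its own (0.0522). With 1 array left out it passed in 3 of 12 fits, those without TG DSS replicate 1, WT DSS replicate 1 or WT DSS replicate 3.

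**Figure D4:**
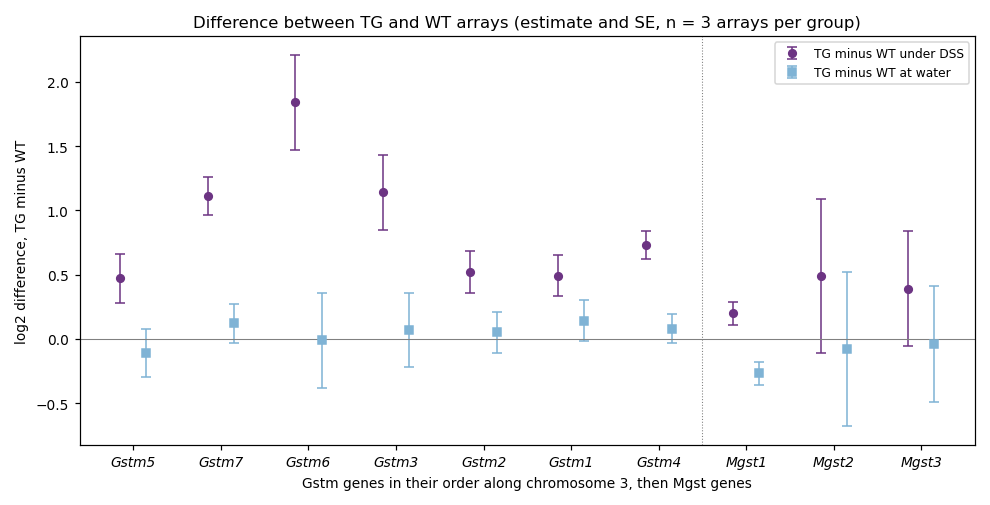
Points give the log2 difference of TG minus WT (y axis) for each gene, circles under DSS and squares at water, with bars for the SE (n = 3 arrays per group); Gstm genes follow their order along chromosome 3. Under DSS the 7 Gstm points lie between 0.47 and 1.84, and at water between -0.11 and 0.14.

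The test of whether the DSS difference itself differed between TG and WT did not pass for any of the 7 Gstm genes, Mgst2 or Mgst3, and none is given for Mgst1. The interaction, the DSS difference in TG minus that in WT, was above 0 for all 7 Gstm genes, from 0.35 to 1.86, and was 1.86 ± 0.52 for Gstm6, 0.99 ± 0.21 for Gstm7 and 0.65 ± 0.16 for Gstm4. Their limma adjusted p was 0.797 for each. The unadjusted p was under 0.05 for 4 of the 7 Gstm genes (Gstm3, Gstm4, Gstm6 and Gstm7), all above 0, where 4.58% of all genes had one above 0 and 0% passed after adjustment. None of these 9 genes passed the interaction in any of the other settings tried. Without WT DSS replicate 3 it was 0.15 for Gstm1 and 0.30 for Gstm2, without WT DSS replicate 2 it was 0.68 for Gstm3, and without TG water replicate 3 it was 0.38 for Gstm5.

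The order of the group means can be read for each gene. For Gstm7 it was TG water at 0.10 ± 0.15, TG DSS at 0.00 ± 0.21, WT water at -0.02 ± 0.23 and WT DSS at -1.12 ± 0.15 (SD, n = 3), where the first 3 overlap and the last is apart. Gstm4 gave TG water 0.12 ± 0.11, WT water 0.04 ± 0.14, TG DSS 0.02 ± 0.14 and WT DSS -0.71 ± 0.14, again with only the last apart. For Mgst1 it was TG DSS at 0.19 ± 0.07, WT DSS at -0.01 ± 0.03, WT water at -0.07 ± 0.15 and TG water at -0.34 ± 0.08. The range over the 12 arrays was 3.13 for Gstm6, 3.06 for Mgst2, 2.32 for Gstm3, 2.25 for Mgst3 and between 0.64 and 1.56 for the other 6 genes.

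Genes elsewhere in the genome were ranked by how little they differed from a member over the 12 arrays, as the root mean square difference in log2 units after centring both. For Gstm6, whose own root mean square was 0.919, the closest of 18316 genes were Smpx at 0.208, Htr4, a serotonin receptor, at 0.213, Slc6a4, the serotonin transporter, at 0.222, Acss2, which makes acetyl-CoA from acetate, at 0.228, and Klb, a co-receptor for FGF hormones, at 0.236. Gstm3 stood at 0.307 and Gstm7 at 0.447 from Gstm6. Mgst1, with a root mean square of 0.205, was closest to Psma6, a proteasome subunit, at 0.115, Ahsa1, an HSP90 co-chaperone, at 0.116, Prkdc, the catalytic subunit of a DNA repair kinase, at 0.117, Casp8ap2 at 0.118 and Bzw1 at 0.118. Gstm5 stood at 0.230 from Mgst1 and the other members between 0.388 and 0.966. These distances describe the same 12 arrays and carry no test.

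The rest of the glutathione pathway was read from fixed lists, and no gene of any list passed in WT under DSS. Among 13 measured glutathione transferases of other classes 0 passed, 3 had an unadjusted p under 0.05, all lower (9.55% of all genes were), and the median difference was -0.41. Gstt3, a theta-class enzyme, read -0.45, -0.91 and -0.26 in the WT DSS arrays, against -0.07, 0.06 and 0.13 in the WT water arrays, a difference of -0.58 ± 0.16 (limma adjusted p = 0.152). Gstz1, a zeta-class enzyme of tyrosine breakdown, stood at -0.71 ± 0.22 (limma adjusted p = 0.178).

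The other NRF2 targets had no shared direction. Their median difference over 20 genes was 0.08 in WT under DSS, with 3 higher and 1 lower at an unadjusted p under 0.05, where 5.7% of all genes were higher and 9.55% lower. Hmox1, the heme oxygenase induced by stress, read 1.66, 3.30 and 1.11 in the WT DSS arrays, against -0.13, -0.10 and -0.11 in the WT water arrays. All 3 DSS arrays were high, with a difference of 2.14 ± 0.44 that did not pass (limma adjusted p = 0.0766). On the TG DSS arrays it read 0.38, -0.29 and 0.06, against the WT DSS values just given, and TG minus WT under DSS was -1.97 ± 0.44 (limma adjusted p = 0.12).

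The median difference in WT under DSS was 0.02 over 13 genes of glutathione synthesis, recycling and breakdown, 0.21 over 8 glutathione peroxidases, 0.03 over 5 exporters of conjugates and -0.05 over 9 regulators. Of these, Ggt5 and Ggt6, gamma-glutamyl transferase family genes, stood at 1.43 ± 0.50 and -0.82 ± 0.29, Gpx7 at 0.25 ± 0.12 and Gpx1 at 0.21 ± 0.11, all in DSS minus water. Abcc5, an exporter, stood at 0.82 ± 0.23 and Mafg, a small partner protein of NRF2, at 0.29 ± 0.09, while Nr1i3, the receptor CAR that senses foreign compounds, stood at -0.52 ± 0.18. Alox5ap and Ptges, which belong to the same membrane protein family as the microsomal transferases and act in leukotriene and prostaglandin synthesis, stood at 1.63 ± 0.57 and 1.70 ± 0.80. Limma adjusted p-values of these 9 genes lay between 0.153 and 0.374.

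Across TG and WT under DSS no gene of these lists passed either. The medians of TG minus WT were 0.37 for the other glutathione transferases, 0.03 for the other NRF2 targets and -0.07 for glutathione synthesis, recycling and breakdown. Gstt3 stood at 0.60 ± 0.16 and Gsr, which regenerates reduced glutathione, at 0.56 ± 0.18 (limma adjusted p = 0.146 and 0.199), and for both every TG DSS array was above every WT DSS array. At water the alpha-class gene Gsta4, whose enzyme acts on lipid aldehydes, read -1.09, -0.57 and -1.55 in the TG arrays, against -0.27, 0.63 and 0.27 in the WT arrays, a difference of -1.28 ± 0.66 that did not pass (limma adjusted p = 1).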

How the data were processed

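RNA from 12 samples was hybridised to mouse expression arrays. The submitters' processing notes name RMA and Affymetrix Expression Console, with no version given in them. The authors deposited values with no stated log base, read here as log2 because RMA gives log2. Every probe set has a 12-array median within 5e-07 of 0, which shows centring. Of 28815 probe sets, 21780 had 1 symbol, 1605 several and 5430 none. The 1-symbol probe sets were averaged into 19935 genes, and the rest were left out.

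One mean per group was fitted by lmFit and eBayes of limma 3.58.1, run in R 4.3.3 (8 residual degrees of freedom), two-sided, with Benjamini-Hochberg adjustment over all genes and a threshold of 0.05. A permutation of 3 against 3 arrays cannot go below 0.1, so none was used. The fit was tested on simulated data in which each gene had the same spread in all 4 groups. The real WT DSS arrays had a larger spread, so this cannot show how the fit behaves on them. Members and gene lists were chosen with earlier results of these data known. All members were named, with up to 2 genes of smallest p per list and comparison and the 5 nearest genes in pattern to Mgst1 and to the Gstm gene of largest range. Cldn2 and the 3 neighbours on each side of the chromosome 3 block, taken by position, fall outside that rule. Alternatives were fits on 2 groups, a replicate block, array centring, weights, robust eBayes, single probe sets, a threshold of 0.1 and each array left out. The main fit did not pair samples by replicate number. Coordinates and promoters are RefSeq, GRCm38.p6. Tables and figures used Python 3.11.15.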

Additional observations from a re-analysis of the deposited data

Results flagged for a closer look

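For 2 genes every array of one group lay on the opposite side of its control mean from every array of the other group. The share of all genes with such a pattern was not counted, so nothing is read from this number. In Gstm5 all TG DSS arrays were above the TG water mean and all WT DSS arrays below the WT water mean, and the DSS difference in TG exceeded that in WT by 0.59 ± 0.27 (SE; limma adjusted p = 0.852), so the test of the difference did not pass. In Mgst1 all TG arrays were above the WT mean under DSS and below it at water, and the same interaction was 0.47 ± 0.13, given without a test because Mgst1 was picked on its DSS difference in TG. Groups of 3 arrays are too small for a test of single outlying samples, and none was run. WT DSS replicate 2 had the most probe sets over 1 log2 unit away from the median, 3795.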

How the results depend on the processing

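The direction of DSS minus water in WT and of TG minus WT under DSS held for Gstm1, Gstm2, Gstm3, Gstm4, Gstm6 and Gstm7 in every setting tried, and the number of calls did not. The count of members passing in WT under DSS was 2, with 0 for only the 2 groups compared, 0 with the replicate block, 0 with weights per group, 5 with weights per array, 4 at an adjusted p under 0.1, and 0 to 4 with 1 array left out. For TG minus WT under DSS it was 1, with 0 for only the 2 groups compared, 0 with the replicate block, 0 with each array centred on its median, 0 with weights per group, 0 with robust eBayes, 0 with every probe set on its own, 3 with weights per array, 3 at an adjusted p under 0.1 and 0 to 4 with 1 array left out. At water it was 0, and 2 (Gstm1 and Gstm4) with weights per array. That setting leaned on few arrays, with weights of 7.153 for WT water replicate 1 and 6.569 for TG water replicate 2. The other water arrays had weights from 0.313 to 1.766, and WT DSS replicate 2 had 0.105. The interaction gave 0 of 9 throughout, Mgst1 left aside. The causes were not tested.

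Over all genes the 34 calls for DSS in WT became 0 for only the 2 groups compared, with the replicate block or with weights per group, 754 with weights per array, 105 with every probe set on its own, 276 at an adjusted p under 0.1, and 0 to 919 with 1 array left out. The 8 calls for TG minus WT under DSS became 4 with each array centred on its median, 0 in the same 3 settings, 273 with weights per array, 110 at an adjusted p under 0.1, and 0 to 1166 with 1 array left out. With weights per array the counts were 1971 at water, 4 for DSS in TG and 12 for the interaction, each 0 in the main setting, and the interaction reached 239 with 1 array left out.

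Signs turned for the estimates that follow. With weights per array, DSS minus water in WT was 0.05 for Gstm5, 0.32 for Mgst2 and 0.17 for Mgst3, TG minus WT at water was 0.31 for Gstm5, 0.23 for Gstm6, 0.09 for Mgst2 and 0.07 for Mgst3, TG minus WT under DSS was -0.06 for Mgst2 and -0.24 for Mgst3, and the interaction was -0.15 for Mgst2 and -0.31 for Mgst3. With 1 array left out, DSS minus water in TG, a description, ran from -0.27 to 0.15 for Gstm6 and -0.20 to 0.01 for Gstm7. DSS minus water in WT ran from -0.03 to 0.11 for Mgst1, -0.96 to 0.57 for Mgst2 and -0.98 to 0.15 for Mgst3. TG minus WT at water ran from -0.03 to 0.19 for Gstm2, -0.03 to 0.23 for Gstm3, -0.27 to 0.09 for Gstm5, -0.16 to 0.18 for Gstm6, -0.01 to 0.20 for Gstm7, -0.15 to 0.03 for Mgst2 and -0.10 to 0.05 for Mgst3. TG minus WT under DSS ran from -0.43 to 1.10 for Mgst2 and -0.31 to 0.82 for Mgst3, and the interaction from -0.35 to 1.18 and -0.26 to 0.86.

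Replicate numbers shared between groups were not taken as pairs in the main fit. The deviations of same-numbered arrays correlated between -0.484 and 0.377. Arrays with different numbers were not compared in this way, so these values do not decide whether the samples were paired. The small number of arrays, and the larger spread of the WT DSS arrays, limit every comparison.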
